A study of Mus musculus with 8 samples.

Results

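The 4 arrays described here hold 2 groups that share neither genotype nor treatment, unstimulated iNOS-/- macrophages and WT M1 macrophages, with 2 arrays each out of 8 arrays in the series. They were selected on how close they lie: earlier values of these data had shown a smaller distance per probe between these groups than between any other pair of groups. That closeness is therefore given as a description with no test, and adjusted p-values are given only for differences between groups. The study asked how nitric oxide from the inducible synthase iNOS, encoded by Nos2, bears on M1 differentiation, the inflammatory state that macrophages enter on contact with bacterial products and interferon-γ.

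All cells came from the bone marrow of female mice (8 weeks old), either C57BL/6J or iNOS-/- with the Nos2 tm1Lau allele. All were cultured for 7 days with GM-CSF at 10 ng/ml. M1 cells then received LPS (200 ng/ml), the bacterial cell wall component sensed by Toll-like receptor 4, together with IFN-γ (10 ng/ml) for 6 h, and unstimulated cells received neither. The remaining 4 arrays hold WT unstimulated and iNOS-/- M1 cells. Between the compared groups genotype and stimulation change together and cannot be told apart. The labels do not say that the arrays of a group came from separate mice or cultures, so the p-values measure the spread between arrays, which may be technical. GM-CSF cultures of bone marrow are known to hold cells with dendritic features and granulocytes beside macrophages.

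LPS signals through NF-kB and the interferon regulatory factors, and IFN-γ through its own receptor. Together they induce cytokines, chemokines, antiviral effectors, guanylate-binding proteins and iNOS itself. The same signals raise MHC class II and costimulatory molecules, which present antigen to T cells, and activated macrophages usually leave the cell cycle. Intensities below are log2 values of single probes after scaling between arrays, with 0 as the lowest possible value. Differences are log2 values of unstimulated iNOS-/- minus WT M1, so negative values mean higher in WT M1. Levels of different probes cannot be compared with each other. A difference is called at an adjusted p-value under 0.05 in limma after Benjamini-Hochberg adjustment over 13868 probes, and a gene is given by its brightest probe.

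Nos2, the targeted gene, stood at 0.97 and 1.87 on the arrays labelled iNOS-/- unstimulated, below detection on both. It reached 7.47 and 7.05 on the WT M1 arrays, at least 30.6-fold higher (log2 difference -5.84, SE 0.32, limma adjusted p = 0.00084). It was undetected on both WT unstimulated arrays, at 0.08 and 0.00. On the arrays labelled iNOS-/- M1 it was 7.49 and 7.67, not lower than in WT M1. The probe starts at base 3546 of the transcript in the numbering of the file. Which bases the allele lacks is not given in the sources used here, so the probe may lie outside them, and the genotype of every array rests on its label.

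Over the probes tested, the median absolute difference between an unstimulated iNOS-/- array and a WT M1 array was 0.344 to 0.363 on the log2 scale. Arrays of one group differed by 0.161 to 0.187. Unstimulated iNOS-/- arrays lay 0.480 to 0.488 from WT unstimulated arrays and 0.717 to 0.740 from iNOS-/- M1 arrays. WT M1 arrays lay 0.517 to 0.525 from WT unstimulated arrays and 0.668 to 0.694 from iNOS-/- M1 arrays. The 4 arrays were thus nearer to one another than either group was to the groups that share its genotype or its treatment, but farther apart than replicate arrays.

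**Figure D1:**
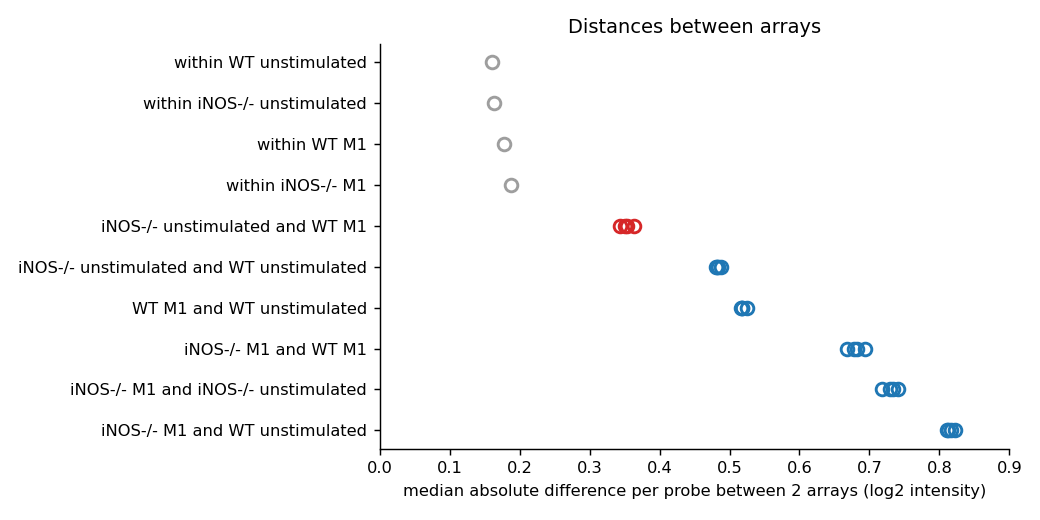
Median absolute difference per probe between 2 arrays (x axis, log2 intensity), one circle per pair of arrays, by the groups the arrays belong to (y axis). Grey circles are arrays of one group (0.161 to 0.187), red circles are the pairs of an unstimulated iNOS-/- array with a WT M1 array (0.344 to 0.363), and blue circles are all other pairs of groups.

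Of the 13868 probes tested, 1882 were called different between the groups (13.6%), 1353 higher in WT M1 (9.76%) and 529 higher in unstimulated iNOS-/- (3.81%). Of those, 603 and 129 probes differed at least 2-fold. A larger number, 8004 probes (57.7%), had a 95% interval of the difference within 2-fold, which is a description. Counted as genes, 943 of 10163 were higher in WT M1 (9.28%), 425 were higher in unstimulated iNOS-/- (4.18%) and 6231 lay within 2-fold (61.3%), with a median difference of -0.04. Against WT unstimulated, 17.9% of genes were called higher and 16.2% lower in unstimulated iNOS-/-, and 20.9% and 15.5% in WT M1. In iNOS-/- M1 these shares were 28.9% and 28.2%. Of the 1882 calls between the compared groups 28.1% were higher in unstimulated iNOS-/-, a share of 54.8% after neqc and 48.0% after quantile normalization. Each array carried much of the count: 724 and 602 probes were called without iNOS-/- unstimulated array 1 or 2, and 758 and 608 without WT M1 array 1 or 2.

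The cytokines of M1 activation set the groups apart. Of 17 listed cytokines, all on the array and tested, 14 were higher in WT M1 and none was higher in unstimulated iNOS-/-. The median difference was -3.50, and -2.69 over the 8 detected on all 4 arrays, of which 7 were called when only such probes were tested. The count was 11 without WT M1 array 1, WT M1 array 2 or iNOS-/- unstimulated array 2 and 11 with a floor of 16, the median fell to -1.64 after neqc and -1.75 with that floor, and Il12b, called here, lost its call under 15 of 19 settings. Il6, a pyrogenic cytokine, was 4.09 and 3.77 in unstimulated iNOS-/- and 10.15 and 10.17 in WT M1 (difference -6.23, SE 0.19, adjusted p = 0.000153). Il12a, a subunit of the T helper 1-inducing IL-12, was 2.72 and 1.55 against 8.90 and 9.05 (difference -6.84, SE 0.37, adjusted p = 0.000823). It was detected on 1 of 2 unstimulated iNOS-/- arrays, so this difference is measured against background, and it ran from -7.42 to -4.59 over the settings. Tnf was 7.26 and 7.38 against 12.64 and 12.56 (difference -5.28, SE 0.13, adjusted p = 0.000108). The groups did not overlap for these genes. In WT unstimulated cells Il6 was 1.45 and 0.97 and Il12a 0.00 on both arrays, both genes below detection, and Tnf was 6.42 and 6.21. All 3 were called higher in unstimulated iNOS-/- than there, by 2.72 (adjusted p = 0.000638), 2.13 (0.0105) and 1.01 (0.00423). For Il6 and Il12a these differences are measured against background, so their size is not established. Over the list, 6 cytokines were called higher and 1 lower in unstimulated iNOS-/- than in WT unstimulated (median 0.38). In that comparison 17.9% of all genes were called higher and 16.2% lower.

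Il1b, the secreted IL-1 that needs inflammasome cleavage, was 9.66 and 9.71 in unstimulated iNOS-/- and 13.10 and 13.28 in WT M1, 11.3-fold higher in the latter (difference -3.50, SE 0.12, adjusted p = 0.000174). In WT unstimulated cells it was 7.30 and 7.27, so unstimulated iNOS-/- lay between the WT groups. Il1a, in contrast, was 7.76 and 7.44 in unstimulated iNOS-/-, close to the 7.43 and 7.38 of WT unstimulated, and 28.2-fold higher in WT M1 at 12.40 and 12.43. Ifnb1, the gene of interferon-β, was 0.00 on both unstimulated iNOS-/- arrays and 5.78 and 5.83 in WT M1, at least 11.2-fold higher (adjusted p = 0.00147). Il23a was at least 10.8-fold higher in WT M1. Il18 did not pass the test at 5.40 and 5.39 against 5.40 and 5.88 (difference -0.25, 95% interval -0.84 to 0.35), and neither did Il10 or Csf3.

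Chemokines separated the groups in part. Of 21 listed, 18 were on the array and 17 were tested, of which 10 were higher in WT M1, none was higher in unstimulated iNOS-/-, and the median difference was -1.54. The median was -0.99 without WT M1 array 1 and -2.08 without WT M1 array 2, -0.86 after neqc and -2.37 over the 15 detected on all 4 arrays, and 7 were called without any one array of the pair. Cxcl9, a T cell attractant induced by IFN-γ, was 3.89 and 4.12 in unstimulated iNOS-/- and 13.37 and 13.43 in WT M1, the largest called difference between the groups (-9.39, SE 0.55, adjusted p = 0.00101). Cxcl10, which acts on the same receptor, was 5.01 and 4.95 against 11.77 and 11.78 (difference -6.80, SE 0.14, adjusted p = 9.53e-05). Cxcl1, a neutrophil attractant, was 6.13 and 6.31 against 12.38 and 12.59 (difference -6.27, SE 0.13, adjusted p = 9.53e-05). In WT unstimulated cells Cxcl1 was 6.42 and 6.24, close to unstimulated iNOS-/-, and Cxcl10 was 3.63 and 3.27, below it.

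The other 7 chemokines were not called between the groups, though only 4 of the 17 tested lay within 2-fold. Ccl2 and Ccl22, both uncalled, differed by -0.90 and -1.19. Over the settings these differences ran from -1.15 to -0.65 and from -1.39 to -0.86. Ccl17, which draws T cells through CCR4, was 13.38 and 13.23 in unstimulated iNOS-/- and 13.42 and 13.49 in WT M1 (difference -0.15, 95% interval -0.38 to 0.08), against 9.05 and 9.12 in WT unstimulated. Ccl7, a monocyte attractant, was 7.51 and 7.70 against 7.72 and 7.89 (difference -0.20, adjusted p = 0.404), with 4.57 and 4.37 in WT unstimulated. Ccl17 and Ccl7 stood above the WT unstimulated arrays in both compared groups.

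Antiviral interferon-stimulated genes were higher in WT M1 for 19 of 23 tested, out of 28 listed, with a median difference of -1.65. Oasl1, a 2'-5' oligoadenylate synthetase-like protein, was 5.29 and 5.32 in unstimulated iNOS-/- and 10.01 and 10.09 in WT M1 (difference -4.75, SE 0.30, adjusted p = 0.00139). Rsad2, which encodes viperin, was 7.72 and 7.78 against 11.88 and 11.99 (difference -4.18, SE 0.09, adjusted p = 9.53e-05). In WT unstimulated cells Rsad2 was 8.41 and 8.27, above unstimulated iNOS-/-, the 1 antiviral gene called in that direction. Another 10 were called higher in unstimulated iNOS-/- than in WT unstimulated (median 0.45), where 17.9% of all genes were called higher and 16.2% lower. Interferon-inducible GTPases, which attack pathogen vacuoles, were higher in WT M1 for 11 of 12 tested of 19 listed, with a median difference of -1.96. Gbp5 was 5.69 and 5.90 in unstimulated iNOS-/- and 9.37 and 9.40 in WT M1 (difference -3.59, SE 0.11, adjusted p = 0.000153). Ifi47 was 7.95 and 7.89 against 10.93 and 10.99 (difference -3.05, SE 0.08, adjusted p = 0.000142).

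The promoters of Cxcl10 and Oasl1 are shown because both genes belong to lists that set the groups apart. Each is the 250 bases before the annotated start in the mouse RefSeq annotation of GRCm38.p6, read 5' to 3' on the gene's strand. Cxcl10 is chr5:92348890-92349139 on the minus strand and Oasl1 is chr5:114922990-114923239 on the plus strand. Capitals mark an ISRE-type match, AAANNGAAA on either strand, and in Cxcl10 also matches to the NF-kB consensus.
Cxcl10: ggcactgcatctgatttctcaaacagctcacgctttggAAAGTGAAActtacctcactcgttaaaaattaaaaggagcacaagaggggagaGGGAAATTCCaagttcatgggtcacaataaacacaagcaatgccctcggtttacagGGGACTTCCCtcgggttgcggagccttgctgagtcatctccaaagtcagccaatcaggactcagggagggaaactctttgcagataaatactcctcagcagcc
Oasl1: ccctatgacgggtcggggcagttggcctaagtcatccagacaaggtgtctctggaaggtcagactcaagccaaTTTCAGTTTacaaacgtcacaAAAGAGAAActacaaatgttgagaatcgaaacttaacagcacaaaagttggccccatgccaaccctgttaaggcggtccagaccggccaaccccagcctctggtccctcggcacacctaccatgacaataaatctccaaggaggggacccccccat
In Cxcl10 the ISRE-type match lies at -212 to -204 and the NF-kB matches lie at -159 to -150 and -103 to -94, counted from the annotated start. In Oasl1 the ISRE-type matches lie at -177 to -169, on the minus strand, and at -156 to -148. Of the promoters found for tested list members, 9 of 9 GTPases and 9 of 15 antiviral genes (60.0%) held an ISRE-type match, against 10.8% of 27025 genes in the table. The NF-kB consensus was present in 5 of 11 chemokine promoters (45.5%) and 3 of 12 cytokine promoters, against 4.5% of all. A match describes letters in this window and is not evidence of binding.

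Of 14 tested IRF and STAT genes, 9 were higher in WT M1, with a median difference of -0.61. Irf1, an early IFN-γ target, was 9.67 on both unstimulated iNOS-/- arrays and 11.73 and 11.68 in WT M1 (difference -2.03, SE 0.11, adjusted p = 0.000724). Its WT unstimulated values were 10.75 and 10.57, above unstimulated iNOS-/-. Over the list, however, 8 genes were called higher and 2 lower in unstimulated iNOS-/- than in WT unstimulated (median 0.39). Among all genes these shares were 17.9% and 16.2%. Irf7, which amplifies interferon transcription, was 5.26 and 4.98 against 7.48 and 7.61 (difference -2.43, SE 0.14, adjusted p = 0.00101). Irf5, linked to the M1 state, was 10.10 and 9.96 against 10.38 and 10.22, with no call (difference -0.27, 95% interval -0.52 to -0.02, adjusted p = 0.143), and its WT unstimulated values were 9.20 on both arrays. Fewer of these modest differences were called with fewer arrays: 3 genes without either iNOS-/- unstimulated array and 4 without either WT M1 array.

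NF-kB subunits and feedback inhibitors were higher in WT M1 for 15 of 19 tested, with a median difference of -1.09. Nfkbiz, an inducible nuclear cofactor of NF-kB, was 6.92 and 6.97 in unstimulated iNOS-/-, against 6.77 and 6.57 in WT unstimulated and 9.91 and 9.92 in WT M1 (difference -2.97, SE 0.10, adjusted p = 0.000184). Tnfaip3, the inhibitor A20, was 6.91 and 6.95 against 9.06 and 9.17 in WT M1 (difference -2.18, SE 0.09, adjusted p = 0.000349). Neither gene was called between unstimulated iNOS-/- and WT unstimulated. Over the list, however, 11 genes were called higher and 2 lower in unstimulated iNOS-/- (median 0.73), against 17.9% and 16.2% of all genes. Rela, the p65 subunit, did not part the groups at 9.86 and 9.91 against 9.85 and 9.92 (95% interval -0.21 to 0.20). The count of 15 fell to 9 without WT M1 array 2 and to 10 without WT M1 array 1 or iNOS-/- unstimulated array 2.

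Costimulatory and maturation genes showed both patterns. Of 20 tested, 11 were higher in WT M1, with a median difference of -0.80. Against WT unstimulated, however, 17 were called higher in unstimulated iNOS-/- and 19 in WT M1. The shares of all genes called higher there were 17.9% and 20.9%. Cd40, the receptor for T cell help, went up in steps from 4.11 and 4.04 in WT unstimulated to 8.92 and 8.91 in unstimulated iNOS-/- and 12.38 and 12.41 in WT M1 (difference between the last 2 groups -3.48, SE 0.08, adjusted p = 9.53e-05). Cd80 was 7.98 and 7.99 against 8.80 and 8.95 (difference -0.89, SE 0.10, adjusted p = 0.00699). Cd86, the other ligand of CD28, was 9.76 and 9.81 against 9.82 and 9.96 by its brightest probe (difference -0.11, 95% interval -0.36 to 0.14), and one of its other probes was called (difference -0.92, adjusted p = 0.00429). Without either iNOS-/- unstimulated array the count of 11 became 7 and 6, without either WT M1 array 6, and without iNOS-/- M1 array 2 it became 7.

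Metabolic lists differed less. For comparison with the counts that follow, 9.28% of all genes were higher in WT M1. Of 22 tested glycolysis and hypoxia genes, 8 were higher in WT M1 (median -0.40), and 5, 4 and 5 without WT M1 array 1, WT M1 array 2 or iNOS-/- unstimulated array 2. Pfkp, a phosphofructokinase, was 9.62 and 9.54 against 10.77 and 10.72 (difference -1.17, SE 0.09, adjusted p = 0.00276), and Hif1a, the hypoxia factor, was also lower in unstimulated iNOS-/- (difference -1.67, adjusted p = 0.0172). Slc7a2, which imports arginine for iNOS, was 7.22 and 7.16 against 9.83 and 9.92 (difference -2.68, SE 0.09, adjusted p = 0.000169). Of 17 tested MHC class I and immunoproteasome genes, 8 were higher in WT M1 (median -0.53), among them Tap1, the peptide transporter, at 6.06 and 6.14 against 7.59 and 7.42. That count was 3 to 5 without any one array of WT M1, iNOS-/- unstimulated or WT unstimulated. Of 20 AP-1 and immediate early genes, 4 were higher in WT M1, led by Dusp2, a MAP kinase phosphatase (difference -3.12, adjusted p = 0.00141), and 2 without iNOS-/- unstimulated array 2, while Fos was 9.56 and 9.66 against 9.62 and 9.66.

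**Figure D2:**
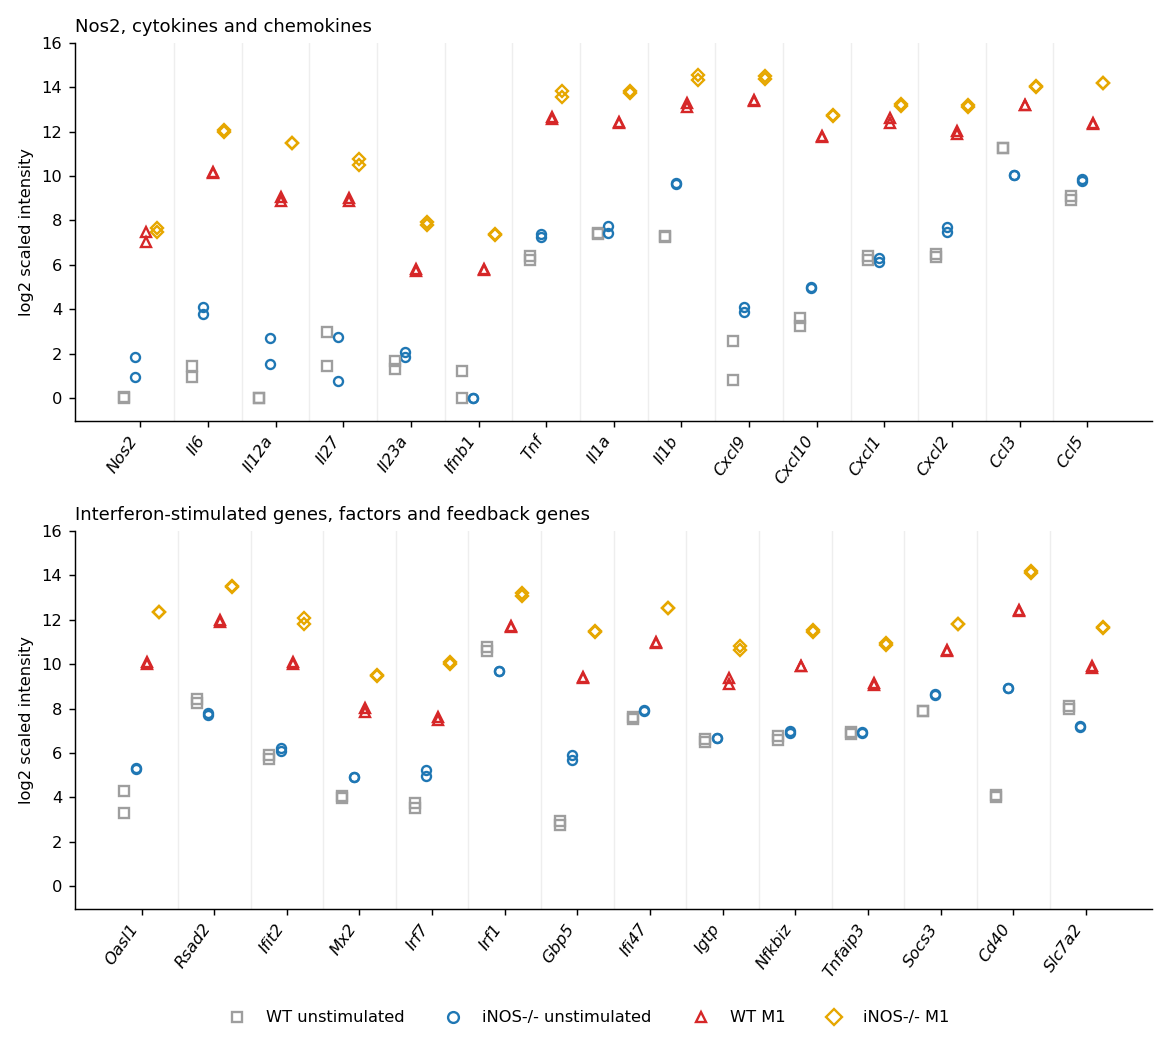
Log2 scaled intensity (y axis) on each of the 8 arrays, one marker per array, for genes that were higher in WT M1 (triangles) than in unstimulated iNOS-/- (circles). For several genes, such as Nfkbiz and Tnfaip3, the circles lie near the WT unstimulated squares, and the iNOS-/- M1 diamonds lie at or above the triangles. Cd40 shows circles midway, at 8.92 and 8.91.

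The 4 arrays outside the pair gave a comparison that shares no array with it, iNOS-/- M1 against WT unstimulated, in which 28.6% of all probes were called higher and 27.1% lower. Of the 1353 probes higher in WT M1 than in unstimulated iNOS-/-, 873 (64.5%) were higher in iNOS-/- M1 and 278 (20.5%) were lower. Of the 529 probes higher in unstimulated iNOS-/-, 198 (37.4%) were higher in iNOS-/- M1 and 190 (35.9%) were lower. The calls are not independent, because the fit over 8 arrays gives a probe the same SE in both comparisons. With each comparison fitted on its own 4 arrays, still scaled and filtered together, 76.4% of the probes higher in WT M1 were higher in iNOS-/- M1 and 9.01% lower, against 25.6% and 23.4% of all probes. For the probes higher in unstimulated iNOS-/-, 46.0% were then higher and 8.85% lower. In the fit over 8 arrays, the 37.4% of these probes that were higher depended on the scaling. It became 25.2% against 26.9% of all probes after neqc and 25.9% against 24.2% after quantile normalization. The shares lower in iNOS-/- M1 were then 44.2% against 33.5% and 43.1% against 30.7%.

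MHC class II genes were far above WT unstimulated in both compared groups and in iNOS-/- M1, and most differed little between the compared groups. Of 10 tested genes, 8 had intervals within 2-fold, against 61.3% of all genes, and the median difference was 0.17. All 10 were called higher in each group than in WT unstimulated, by a median of 2.30 in unstimulated iNOS-/- and 2.29 in WT M1, where 17.9% and 20.9% of all genes were called higher and 16.2% and 15.5% lower. All 10 were also called higher in iNOS-/- M1 than in WT unstimulated (median 2.76), where 28.9% of all genes were called higher and 28.2% lower. These comparisons share the WT unstimulated arrays. H2-Eb1, a class II beta chain, was 13.38 and 13.45 in unstimulated iNOS-/- and 13.39 and 13.53 in WT M1 (difference -0.04, 95% interval -0.27 to 0.18), with 10.72 and 10.78 in WT unstimulated and 13.97 and 13.96 in iNOS-/- M1. Ciita, the transactivator on which class II transcription depends, was 9.52 and 9.56 against 9.40 and 9.33 (difference 0.18, 95% interval -0.10 to 0.45), with 6.04 and 5.83 in WT unstimulated. H2-DMb2, which helps load peptide, was 9.15 and 9.11 against 8.85 and 8.82, with 2.99 and 3.31 in WT unstimulated. The compared groups overlapped for H2-Eb1, while for Ciita and H2-DMb2 both unstimulated iNOS-/- arrays lay above both WT M1 arrays, with no call.

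H2-Oa and H2-Ob, chains of the DO protein that modulates peptide loading, differed more and had intervals beyond 2-fold. H2-Ob was 7.03 and 7.00 in unstimulated iNOS-/- and 5.82 and 5.88 in WT M1 (difference 1.16, 95% interval -0.37 to 2.69, adjusted p = 0.268), with 3.38 and 1.42 in WT unstimulated and 7.81 and 7.92 in iNOS-/- M1. H2-Oa was 7.72 and 7.85 against 7.31 and 7.03 (difference 0.62, adjusted p = 0.112). Neither was called, though the groups did not overlap, and under 5 of 20 other settings H2-Ob was called and under 4 H2-Oa. Cd74, the invariant chain, was the gene that was called, at 14.20 and 14.10 against 14.50 and 14.61 (difference -0.41, SE 0.09, adjusted p = 0.0471), a call lost without any one of the 8 arrays. Its difference turned to 0.06, with no call, after neqc and after quantile normalization. After neqc 5 class II genes were called higher in unstimulated iNOS-/- instead and none in WT M1. The promoter of H2-Eb1 is shown for the class II list, as chr17:34305617-34305866 on the plus strand, with the Y box CTGATTGG in capitals at -62 to -55.
H2-Eb1: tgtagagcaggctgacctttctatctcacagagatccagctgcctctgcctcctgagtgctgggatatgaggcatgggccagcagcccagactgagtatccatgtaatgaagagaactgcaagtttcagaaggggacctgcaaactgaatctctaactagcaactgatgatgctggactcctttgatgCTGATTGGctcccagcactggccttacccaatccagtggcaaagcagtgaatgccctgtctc
The Y box was present in 3 of 7 class II promoters found, against 4.4% of all promoters, and its inner CCAAT, on either strand, in 7 of 7 against 37.5% of all.

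Genes of cell division were higher in both compared groups than in WT unstimulated. Of all genes, 17.9% were called higher than there in unstimulated iNOS-/- and 20.9% in WT M1. Of 28 tested mitosis genes, 21 lay within 2-fold of each other in the compared groups (median 0.14), a share not far from the 61.3% of all genes and no larger than in lists such as unfolded protein response (17 of 22) or p53 targets (13 of 17). Of the mitosis genes, 24 were called higher in unstimulated iNOS-/- than in WT unstimulated (median 1.57), as were 22 in WT M1 (median 1.49). Birc5, the chromosomal passenger survivin, was 9.18 and 9.20 in unstimulated iNOS-/- and 9.13 and 9.15 in WT M1 (difference 0.05, 95% interval -0.18 to 0.28). It was 6.94 and 7.04 in WT unstimulated and 7.44 and 7.29 in iNOS-/- M1. Top2a, the topoisomerase that untangles chromosomes, was 8.52 and 8.57 against 8.38 and 8.53, with 6.40 and 6.38 in WT unstimulated and 7.34 and 7.39 in iNOS-/- M1. For both genes the 4 arrays stood above all others. Tpx2, Cdc20 and Plk1 were called higher in unstimulated iNOS-/- than in WT M1, by 0.65 (adjusted p = 0.00936), 0.43 (0.0374) and 0.45 (0.0492), and other probes of Cdc20 were not called. Without any one of the 8 arrays, 0 or 1 mitosis gene was called higher in unstimulated iNOS-/-.

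DNA replication genes gave similar counts. Of 35 tested, none was called between the compared groups and 30 lay within 2-fold (median 0.12). Against WT unstimulated, 26 were higher and 2 lower in unstimulated iNOS-/- (median 1.17), and 23 were higher and 2 lower in WT M1 (median 0.98). Mcm5, a helicase subunit, was 9.77 and 9.74 against 9.48 and 9.43, with 7.94 and 7.99 in WT unstimulated. Pcna went the other way, at 6.22 and 6.21 against 5.94 and 6.06, below the 7.26 and 7.02 of WT unstimulated. In iNOS-/- M1 the medians against WT unstimulated were -0.02 for mitosis, with 9 genes higher and 6 lower, and -0.30 for replication, with 8 higher and 9 lower. Of all genes, 28.9% were called higher and 28.2% lower in that comparison. After neqc 7 mitosis and 9 replication genes were called higher in unstimulated iNOS-/-. In bulk RNA a change in the share of dividing cells and a change in RNA per cell cannot be told apart.

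The promoter of Top2a, chr11:99024190-99024439 on the minus strand, is shown for its CCAAT boxes, in capitals (ATTGG where the match is on the minus strand).
Top2a: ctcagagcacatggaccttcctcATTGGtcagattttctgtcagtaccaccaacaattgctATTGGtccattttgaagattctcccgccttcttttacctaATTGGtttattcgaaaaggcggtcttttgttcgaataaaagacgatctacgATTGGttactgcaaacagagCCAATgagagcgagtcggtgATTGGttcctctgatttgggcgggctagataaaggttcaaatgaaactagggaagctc
The 6 matches begin at -227, -189, -149, -98, -78 and -58. A CCAAT box was present in 18 of 24 mitosis promoters (75.0%) and 16 of 30 replication promoters, against 37.5% of all.

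Markers of dendritic cells, granulocytes and mast cells summed to higher intensities in both compared groups than in WT unstimulated, and to the highest in iNOS-/- M1. Of 14 tested dendritic cell markers, 11 were called higher in each of the compared groups than in WT unstimulated, by medians of 3.69 and 4.20, and 2 were called between them, none without a WT M1 or an iNOS-/- unstimulated array and 1 without an iNOS-/- M1 array. Of all genes, 17.9% in unstimulated iNOS-/- and 20.9% in WT M1 were called higher than in WT unstimulated. The summed intensity of the list was 15230 to 16030 in unstimulated iNOS-/- and 17770 to 18390 in WT M1, against 1008 to 1013 in WT unstimulated and 37560 to 39270 in iNOS-/- M1. Such sums add probes of unlike brightness and do not measure cell content. In the compared groups most of this sum came from Ccl17, a chemokine described above. Dpp4, the surface peptidase CD26, was 8.76 and 8.86 against 8.65 and 8.63, and was undetected in WT unstimulated. Il4i1, an amino acid oxidase of mature dendritic cells, was 11.72 and 11.78 against 12.15 and 12.17 (difference -0.42, adjusted p = 0.0413), with 6.20 and 6.28 in WT unstimulated. Itgae, the integrin CD103, was 8.99 and 9.07 against 7.06 and 7.24, uncalled by its brightest probe (difference 1.88, adjusted p = 0.102) and called by others (1.93 and 1.99). Itgax, which encodes CD11c, was 7.74 and 7.41 in WT unstimulated, 7.98 on both unstimulated iNOS-/- arrays and 7.88 and 8.08 in WT M1, and Flt3 and Xcr1 were below the detection filter.

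Granulocyte markers summed to 2152 to 2205 in unstimulated iNOS-/- and 2221 to 2303 in WT M1, against 1427 to 1440 in WT unstimulated and 7547 to 8001 in iNOS-/- M1. S100a9, a calgranulin of neutrophils and monocytes, was 7.84 and 7.74 against 7.26 and 7.05 (difference 0.64, adjusted p = 0.023, a call lost without WT M1 array 2 or either iNOS-/- unstimulated array), and 0.00 on both WT unstimulated arrays. Lcn2 and Ltf went the opposite way, higher in WT M1 (differences -1.62 and -1.47). Mast cell and basophil markers summed to 426 to 430 and 512 to 559, against 50.9 to 51.9 in WT unstimulated and 2169 to 2241 in iNOS-/- M1, while their defining genes Mcpt8, Ms4a2, Mcpt4, Tpsab1 and Cma1 were below the filter. Of the lymphocyte list only Lck passed the filter, and Cd3e, Cd4 and Cd8a did not. Macrophage identity genes summed to 37170 to 38260 in unstimulated iNOS-/- and 49950 to 51750 in WT M1, against 49790 to 50470 in WT unstimulated and 51920 to 53560 in iNOS-/- M1. Of 20 such genes 7 were higher in WT M1 (1 to 3 without an array of the pair), Csf1r was not called (difference -0.06, adjusted p = 0.775), and the part of cell composition in the results was not tested.

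Lysosomal and lipid genes were lower in both compared groups and in iNOS-/- M1 than in WT unstimulated. Of all genes, 16.2% were called lower in unstimulated iNOS-/-, 15.5% in WT M1 and 28.2% in iNOS-/- M1. Between the compared groups 61.3% of all genes lay within 2-fold and 9.28% were higher in WT M1. Of 27 tested cathepsins and lysosomal genes, 20 were called lower in unstimulated iNOS-/- (median -0.99) and 16 in WT M1 (median -0.61), none was higher in either, 21 were lower and 1 higher in iNOS-/- M1 (median -1.02), and 21 lay within 2-fold between the groups. Cd68, a lysosomal glycoprotein of macrophages, was 12.17 and 12.22 in WT unstimulated, 10.68 and 10.61 in unstimulated iNOS-/- and 11.22 and 11.16 in WT M1 (difference -0.55, adjusted p = 0.0232). Lipid handling genes were called lower in 12 and 9 of 16 (medians -1.29 and -0.78), and in 13 in iNOS-/- M1 (median -1.62). Fabp5, a fatty acid carrier, was 10.29 and 10.26 in WT unstimulated, 7.73 and 7.68 in unstimulated iNOS-/- and 8.32 and 8.42 in WT M1. Cholesterol synthesis genes differed between the groups, with 8 of 20 higher in WT M1 (median -0.41), and 13 of 20 called lower in unstimulated iNOS-/- than in WT unstimulated against 1 in WT M1. The count of 8 was 2 or 3 without an array of the pair.

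**Figure D3:**
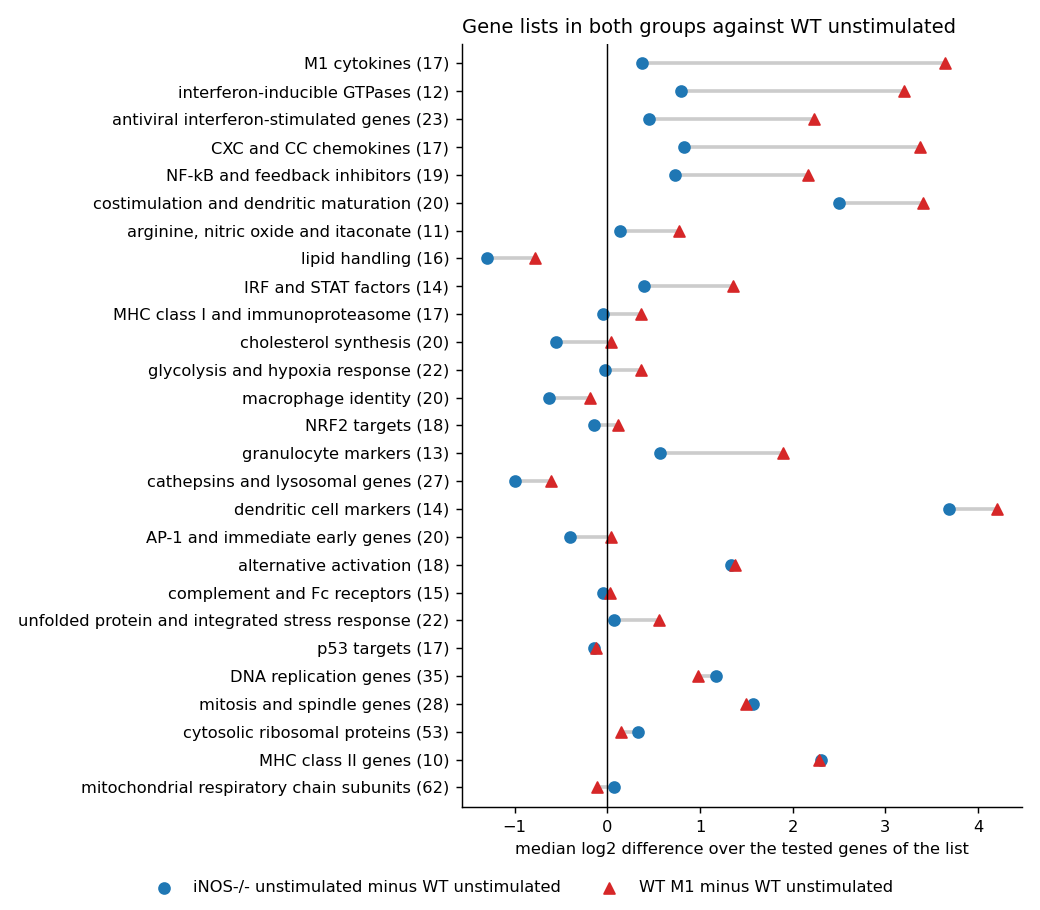
Median log2 difference from WT unstimulated (x axis) over the tested genes of each list (y axis, number of genes in brackets), for unstimulated iNOS-/- (blue circles) and WT M1 (red triangles), which share the WT unstimulated arrays. Both markers coincide for MHC class II genes (2.30 and 2.29) and nearly so for mitosis genes (1.57 and 1.49), and lie farthest apart for M1 cytokines (0.38 and 3.64).

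Counting single probes, 94 had all 4 arrays of the pair more than 1 log2 unit from all other arrays (intensities under 16 set to 16), 90 above and 4 below. By the same count 210 probes parted stimulated from unstimulated arrays, all higher when stimulated, and 29 parted the genotypes. Hr, a nuclear corepressor, was 9.36 and 9.31 in unstimulated iNOS-/- and 8.92 and 9.05 in WT M1, against 6.34 to 6.56 on the other arrays. Cdca7, a MYC target, was 6.80 and 6.65 against 6.47 and 6.43, with 4.38 and 4.48 in WT unstimulated and lower still in iNOS-/- M1, at 1.34 on the first array. Bcas1 and Epb4.1l3 likewise lay above all other arrays. Below the other arrays, by a nearest gap of 0.996 and so not among the 4 probes counted, lay Tgif1, a homeobox repressor. It was 7.58 and 7.90 against 7.72 and 7.77, with 8.90 to 9.38 on the others. However, another of its probes was called between the groups (difference -1.05, adjusted p = 0.00377). These genes were picked for this order, which is a description.

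**Figure D4:**
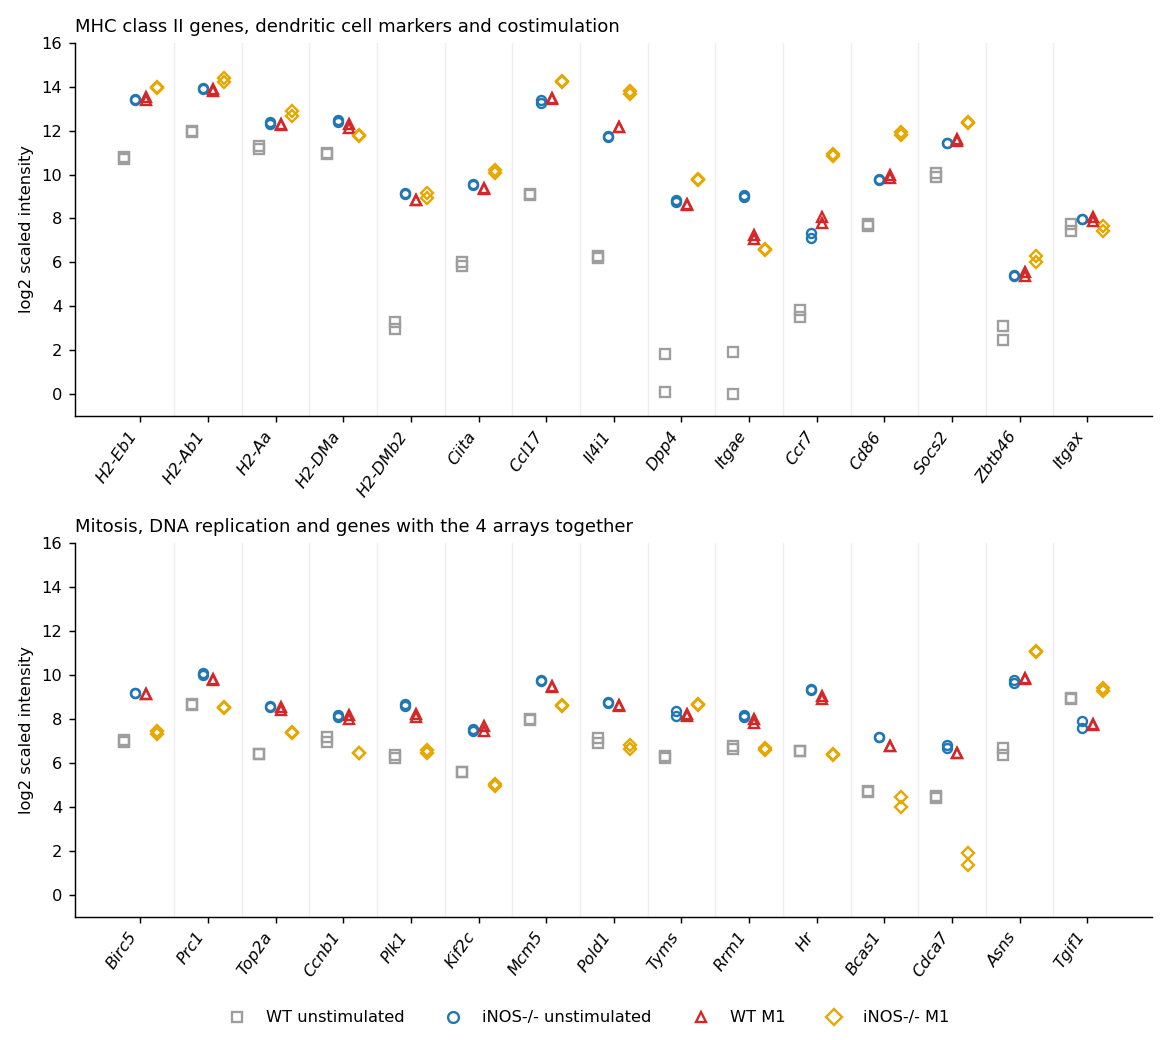
Log2 scaled intensity (y axis) on each of the 8 arrays, one marker per array, for MHC class II, dendritic and costimulatory genes (top) and for mitosis, replication and other genes (bottom). Circles (unstimulated iNOS-/-) and triangles (WT M1) lie together for most genes, as for Birc5 at 9.13 to 9.20, but not for Itgae, and WT unstimulated squares lie apart for all genes but Itgax. In iNOS-/- M1 (diamonds) the class II genes stay high and most division genes are lower.

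Fewer genes were called higher in unstimulated iNOS-/- than in WT M1 (425 against 943), an order that turned after neqc, with 1951 probes against 1612. Erdr1, erythroid differentiation regulator 1, was 7.92 and 8.07 in unstimulated iNOS-/- and undetected in WT M1 at 2.23 and 0.64, at least 37.1-fold lower there (difference 6.56, SE 0.66, adjusted p = 0.00531). It was 7.40 and 7.43 in iNOS-/- M1 and undetected in WT unstimulated, so it followed the genotype label. Ccl1, a chemokine of activated T and myeloid cells, was 3.91 and 3.93 and at least 2.21-fold lower in WT M1, where both arrays were at 0.00. It was 5.85 and 6.03 in iNOS-/- M1 and 0.00 on both WT unstimulated arrays. Ccl1 and the other 8 of the 10 largest differences lay close to the detection limit, with bounds of 3.37-fold for Cd207 down to 1.22-fold for Crisp1.

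Among genes detected on all 4 arrays, Serpinf1, an antiangiogenic serpin, was 5.63 and 5.51 against 3.19 and 3.36 (difference 2.30, SE 0.18, adjusted p = 0.00248). Cpa3, a mast cell carboxypeptidase, was 6.59 and 6.41 against 4.34 and 4.74 (difference 1.96, SE 0.16, adjusted p = 0.00296), and 0.00 on both WT unstimulated arrays. Il18r1, a chain of the IL-18 receptor, was 7.37 and 7.49 against 5.26 and 5.70 (difference 1.95, SE 0.20, adjusted p = 0.0055), and at most 0.40 on the 4 other arrays. All 3 genes were clear of their WT M1 values and were also above WT unstimulated in both compared groups. In iNOS-/- M1 Serpinf1 was 4.87 and 4.97 and Cpa3 was 6.83 and 6.92, above WT M1 as well. Klrb1b, an inhibitory lectin-like receptor, was 5.59 and 5.38 against 3.52 and 3.85 (difference 1.80, SE 0.15, adjusted p = 0.00293). It was 4.53 and 4.65 in iNOS-/- M1 and 0.00 on both WT unstimulated arrays. Il1r2, the IL-1 decoy receptor, was 8.32 and 8.46 against 6.85 on both arrays (difference 1.54, SE 0.35, adjusted p = 0.0489). That call was lost under 8 of 20 settings (adjusted p up to 0.173), and Il1r1, the signalling receptor, was near the detection limit with a difference of -0.35 (adjusted p = 0.8).

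Housekeeping lists leaned the same way by small amounts, though some settings also called members of these lists higher in WT M1. Of all genes, 4.18% were higher in unstimulated iNOS-/-, 9.28% were higher in WT M1 and 61.3% lay within 2-fold. Of 53 ribosomal protein genes, 6 were higher in unstimulated iNOS-/-, led by Rps24 (0.83, adjusted p = 0.00498), none was higher in WT M1, and 47 lay within 2-fold (median 0.15). Of 62 respiratory chain genes, 6 were higher, led by Cox6c (0.85, adjusted p = 0.00731), and 57 lay within 2-fold (median 0.18). These counts depended on the scaling, reaching 25 and 26 genes in the setting with the most calls, and were 2 and 1 without any one array of the pair. Without either WT unstimulated array they were 3 and 3, and 4 ribosomal genes were called without iNOS-/- M1 array 2.

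Of the 29 probes that parted the arrays by genotype label, 14 were higher and 15 lower on iNOS-/- arrays, and this bears on the pair because its groups differ in genotype. Apoe, the lipid carrier, was 11.49 and 11.56 in WT unstimulated and 8.84 and 8.97 in WT M1, but 6.88 and 6.86 in unstimulated iNOS-/- and 6.60 and 6.77 in iNOS-/- M1 (difference in the pair -2.03, SE 0.10, adjusted p = 0.00062). Retnla, a marker of alternative activation, was 8.42 and 8.44 in WT M1 and 5.68 and 6.07 in unstimulated iNOS-/- (difference -2.55, SE 0.16, adjusted p = 0.00134). Arg1, which competes with iNOS for arginine, was 6.80 and 6.68 in WT M1 and 4.67 and 4.18 in unstimulated iNOS-/- (difference -2.32, SE 0.19, adjusted p = 0.00298). For these genes every iNOS-/- array lay below every WT array. Sdc1, Ctsa, Ear11, Cd59a, Igf1 and Pros1 were lower likewise, and Erdr1, Cpa3, Scin, Ifitm1 and Fndc5 higher. For Ctsa this held by a dimmer probe, and its brightest probe differed by -0.77 in the pair. The 29 probes also held 2 of 5 Actb probes (differences -3.32 and -3.16). Another Actb probe, outside the 29, was also called higher in WT M1 (difference -1.17). The brightest Actb probe did not differ in a call (difference -0.14, adjusted p = 0.389).

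**Figure D5:**
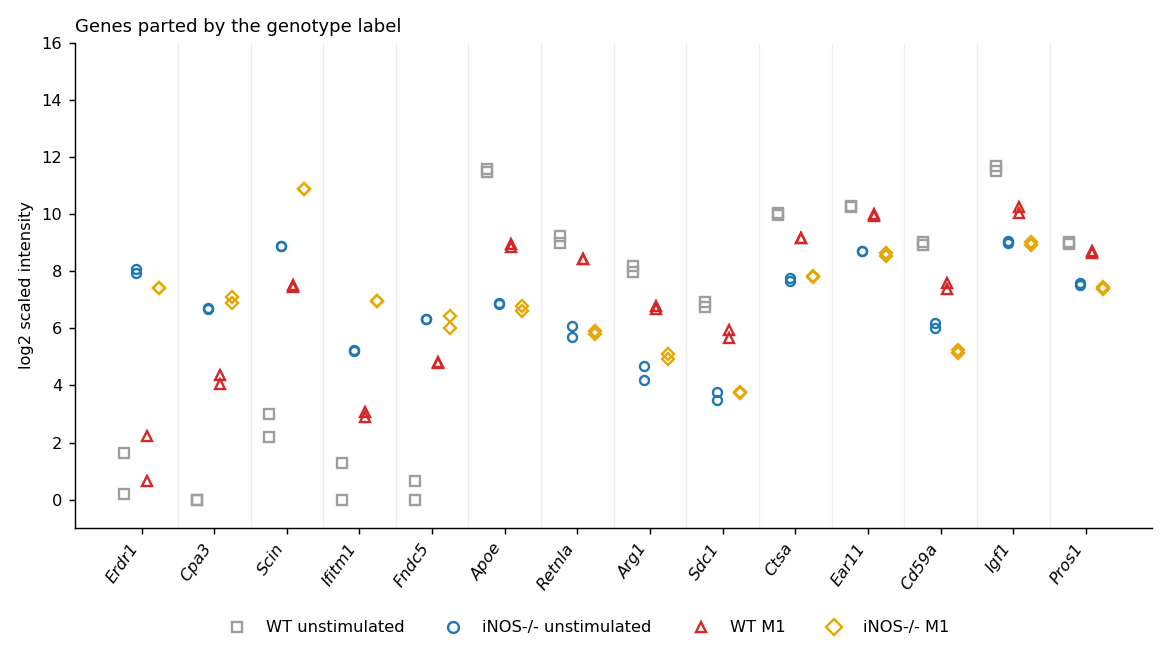
Log2 scaled intensity (y axis) on each of the 8 arrays, one marker per array, for genes whose iNOS-/- arrays (circles and diamonds) all lie more than 1 log2 unit above or below all WT arrays (squares and triangles). Erdr1 is highest on iNOS-/- arrays (7.40 to 8.07), and Apoe is lowest on them (6.60 to 6.88). Each gene is drawn by its probe among those parted by genotype label, which for Cpa3 and Ctsa is not the brightest.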

How the data were processed

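The authors deposited, in one table, the intensity of each of 25697 Illumina mouse bead array probes, averaged over its beads and not normalized between arrays, and, for each value, a detection p-value. The submitters' processing notes name GenomeStudio and limma 3.14.4, and the methods name background subtraction, rank-invariant normalization, negative values set to 1, log2 and limma with Benjamini-Hochberg adjustment. The file header names no background subtraction, yet 25.2% to 27.2% of the deposited intensity values per array lie below 0, as after one, so none was subtracted again. Between 11833 and 12673 probes per array (46.0% to 49.3%) had a detection p-value under 0.05, mean intensity ran from 155 to 224, and the number of arrays limits the precision.

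The scale factor of an array was the slope of a robust fit without intercept (rlm in MASS 7.3.60.0.1) against the mean array, over probes whose rank changed by under 0.05 of the mean rank, between the quantiles 0.5 and 0.9. Values under 1 were set to 1 and log2 was taken. Detection on 2 or more arrays admitted 13868 probes, which carry 10163 of 18138 gene symbols. The 8 arrays entered one limma 3.58.1 model (R 4.3.3) with a mean for each of 4 groups and 2-sided tests. Scale factors were 0.813 to 1.30. The unstimulated iNOS-/- arrays had the lowest, 0.855 and 0.813, and the WT M1 arrays had 1.17 and 1.30. Scaling thus raised WT M1 relative to unstimulated iNOS-/-, and small differences between these groups depend on it. The scripts were tested on simulated data. All value columns matched a sample (0 did not), and gene symbols are those of the array design, whose build is not stated, so no probe coordinates are given.

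A probe undetected on both arrays of a group has only a bound: the brighter group's mean was divided by the dim group's mean after raising each dim array, where lower, to its faintest detected probe. Named genes are Nos2, the 10 largest called differences each way without overlap, the 5 largest each way among genes detected on all 4 arrays, the brightest and most different members of each list, the 5 genes each way whose 4 arrays lie farthest from the others, and genes the paper's text names for the arrays. Actb was named after its values were seen. A few genes covered by these rules are not reported here. The pair, the lists (from general knowledge) and the tests were chosen with earlier results of these data known. Promoters came from RefSeq, matched by symbol. Alternatives were neqc, quantile normalization, a line with an intercept, a floor of 16, other detection filters, one probe per gene, only the compared groups, a replicate block, an intensity trend, a 2-fold minimum and each array left out.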

Additional observations from a re-analysis of the deposited data

How the results depend on the processing

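The count of 1882 probes called between unstimulated iNOS-/- and WT M1 was 3563 after neqc, 3161 with an intensity trend, 557 when only the compared groups were fitted, 732 with a 2-fold minimum, and 602 to 1584 without one array. The 529 probes higher in unstimulated iNOS-/- became 1951 after neqc, 1021 after quantile normalization, 879 with an intercept, 913 with a floor of 16, 804 among probes detected on all 4 arrays, 113 in the compared groups alone, 1128 with a trend, 129 at 2-fold and 77 to 464 without one array. The 1353 higher in WT M1 became 444, 2033 and 603 under the compared groups alone, the trend and the 2-fold minimum, and 474 to 1120 without one array. The share of calls higher in unstimulated iNOS-/- was 54.8% after neqc, 48.0% after quantile normalization, 17.6% at 2-fold and 12.8% to 29.3% without one array. Unstimulated iNOS-/- against WT unstimulated gave 4459 calls, 1956 at 2-fold and 2778 to 4529 without one array. WT M1 against WT unstimulated gave 4869, 2102 at 2-fold and 3164 to 4960. The 8004 probes within 2-fold were 13165 after neqc and 12114 with a floor of 16.

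With a replicate block 1208 probes were called, 289 of them higher in unstimulated iNOS-/-. Same-numbered arrays did not deviate together (correlations -0.0375 to 0.0247), so the numbers are not taken to pair samples.

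All 3 other scalings kept 496 of the 529 and 1044 of the 1353 calls, and leaving out each array in turn kept 53 and 374. The median over all probes was -0.06, 0.03 after neqc and 0.06 after quantile normalization. Over 603 probes of list members and other named genes, 1 called difference turned sign, that of Cd74 (0.06 after neqc and after quantile normalization). Over all combinations of a setting and the 40 probes named by size, by pattern or in the paper, 679 kept direction and call, 51 lost the call, 30 gained one, and 14 uncalled differences turned sign. The cause of these shifts was not tested. Values near the detection limit carry the least information: a floor of 16 took 7 of the 10 largest differences in favour of unstimulated iNOS-/- to 0.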
